A study of Mus musculus with 8 samples.

Results

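The genes described here belong to the YAP and TEAD pathway, with its upstream kinases and some of its best known targets, in a mouse spleen stromal cell line. They were taken by symbol from the deposited table, and all 10 members (Ctgf, Cyr61, Ankrd1, Amotl1, Amotl2, Lats1, Lats2, Yap1, Wwtr1 and Tead1) had a row among its 12589 genes. The cells were the line mSSC-YFP, which carries a yellow fluorescent protein, was immortalized, and was grown in serum-containing DMEM. RNA-seq was made from 4 cultures treated for 48 h with BMS493, an inhibitor of retinoic acid signaling, and from 4 cultures treated for 48 h with its vehicle DMSO. The labels name no other agent or allele. They do not say whether the cultures were separate experiments, and all come from 1 line.

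The value used for each gene was the authors' mean log2 normalized expression over all samples, which mixes the BMS493 and DMSO cultures. It is called the level below, and a step of 1 is a doubling. No value of an individual culture was used, and the table's columns on the comparison of BMS493 with DMSO hold the study's own findings and were not used. So no difference between the groups, no spread between cultures and no test is given for any gene, and the depth of each library was not analysed. Raised to the power of 2, the levels of all genes sum to 989369, which is the size of sum that CPM values have. In bulk RNA, the number of cells that express a gene and the amount of RNA per cell cannot be told apart.

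YAP, encoded by Yap1, and TAZ, encoded by Wwtr1, are transcriptional coactivators that do not bind DNA themselves but are brought to it by TEAD factors. The Hippo kinases LATS1 and LATS2 phosphorylate both proteins, which keeps them in the cytoplasm and marks them for degradation. In fibroblasts and other stromal cells the pathway is known to respond to cell density, matrix stiffness and actin tension, and Ctgf, Cyr61 and Ankrd1 are its most used target genes.

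The labelled cell type was checked first against marker genes. All 8 stromal markers looked for had a row, with a median level of 9.63 against 4.99 for all genes, and 7 of them lay above the 75th percentile of all genes. The collagen genes Col1a1 and Col1a2 stood at 13.29 and 12.47, and the intermediate filament gene Vim at 11.78. The lowest were the growth factor receptor genes Pdgfra and Pdgfrb, at 5.24 and 6.45, and the podoplanin gene Pdpn at 7.02. Per kilobase of the longest transcript, a scale described below, 6 of the 8 lay above the 75th percentile. On that scale Pdgfra, at 2.47, lay below the median gene. The leukocyte markers Ptprc, Cd79a, Cd3e and Itgam had no row. Of 3 endothelial markers, Cdh5 had no row, while Pecam1 and Kdr were at 0.47 and 2.83. Of 4 epithelial markers, Epcam had no row and the keratin genes Krt18 and Krt8 were at 0.31 and 1.55. The exception was Cdh1, which encodes E-cadherin, with a level of 8.03, higher than 95.1% of the genes. A gene without a row is only not listed, since the filter on genes is not given in the sources used here.

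All 10 members had levels above the 75th percentile, a level of 6.25, which 25% of all genes pass by construction. Their median level was 7.88, against a median of 4.99 over all genes. The members, and the lists below, were chosen with earlier results of these data known, so these contrasts are descriptions only. The level of a gene grows with the length of its transcript, so members are compared with each other per kilobase, as the level minus log2 of the length of the longest annotated transcript. On that scale 7 of the 10 members lay above the 75th percentile, and Amotl1, Lats1 and Lats2 lay below it (4.57). With the median transcript length 8 passed it, all but Wwtr1 and Lats1, and with the coding length 7 passed it, all but Amotl1, Lats1 and Lats2. With the longest transcript the order was Cyr61, Ctgf, Amotl2, Ankrd1, Yap1, Tead1, Wwtr1, Lats2, Amotl1 and Lats1. The median of the members per kilobase was 5.10, against 3.28 over the 12392 genes with a length. Together the members made up 0.371% of the sum over all genes, 3670 on the linear scale, to which Cyr61 gave 984 and Lats1 110.

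**Figure D1:**
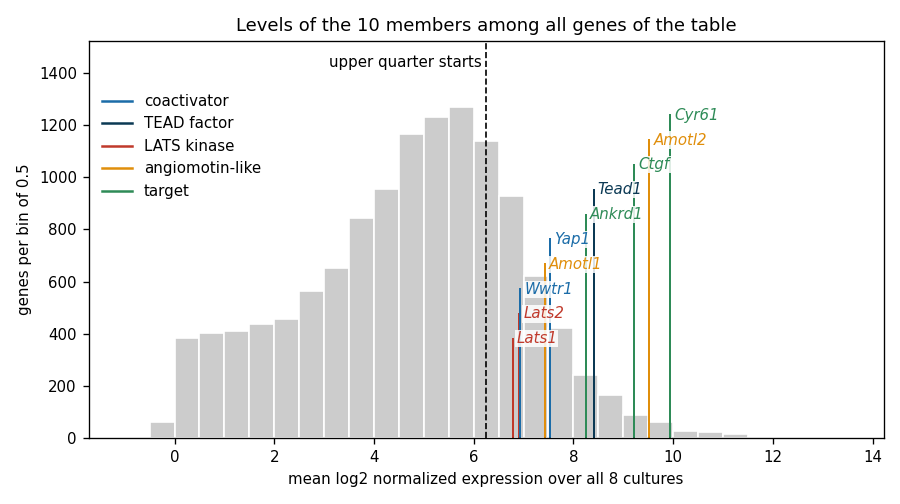
Histogram of the mean log2 normalized expression of all 12589 genes (x axis, bins of 0.5; y axis, genes per bin), with a coloured line for each member and a dashed line at the 75th percentile, 6.25. The height of a member's line has no meaning, and all 10 lines stand to the right of the dashed line, from Lats1 at 6.78 to Cyr61 at 9.94.

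Per kilobase, Cyr61, Ctgf, Amotl2 and Ankrd1, all known targets, held the first 4 places with the longest transcript and with the coding length. With the median transcript length Tead1 came between them, at 8.12. Lats2, also a known target, was in place 8 with the longest transcript, 6 with the median length and 9 with the coding length. Cyr61, now named Ccn1, encodes a secreted matricellular protein that binds integrins. Its level was 9.94, rank 84 of all genes, and per kilobase 8.93, higher than 99.4% of the genes with a length. Ctgf, now named Ccn2, encodes connective tissue growth factor, a related matricellular protein known for its part in fibrosis. It stood at 9.22, rank 183, and at 7.91 per kilobase. The 2 genes are short, with longest transcripts of 2.02 and 2.49 kb. Per kilobase, Cyr61 was 1.02 above Ctgf on the log2 scale, a ratio of 2.03. Ankrd1 encodes a nuclear ankyrin repeat protein best known from heart and skeletal muscle. In these stromal cells its level was 8.25, rank 505, and per kilobase it stood at 7.23, higher than 97.2% of genes. Their families were not abundant as a whole. Of the other CCN family genes, Wisp1 stood at 6.20 per kilobase, whereas Wisp2 and Nov stood at -0.05 and -0.31 and Wisp3 had no row. Ankrd23, a relative of Ankrd1 from the muscle ankyrin repeat family, was at 0.66 per kilobase, 6.57 below Ankrd1 on the log2 scale, and Ankrd2 had no row.

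Of the 4 pairs of related members, the angiomotin-like genes lay farthest apart per kilobase with each of the 3 lengths. Their proteins bind YAP and TAZ and hold them at junctions and on actin, and Amotl2 is itself a known YAP target. Amotl2 had a level of 9.53, rank 137, and 7.38 per kilobase. For Amotl1 the level was 7.43, and per kilobase 4.27, higher than 69.9% of genes. Per kilobase the difference was -3.11 on the log2 scale (Amotl1 minus Amotl2), which is 8.63 times more for Amotl2. The size of the gap depends on the length chosen, since the longest transcript of Amotl1 has 8.96 kb and its coding part 3.02 kb. Per kilobase of coding length Amotl2 was 5.33 times higher.

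Among the kinase genes, Lats1 was the lowest member per kilobase with each of the 3 lengths. Lats1 had a level of 6.78 and 3.93 per kilobase, higher than 63.2% of genes, and Lats2 had 6.92 and 4.54 per kilobase, higher than 74.5%. Lats2 is also a known target of YAP, which forms a negative feedback. The difference per kilobase was -0.61 (Lats1 minus Lats2) with the longest transcripts, -0.25 with the coding lengths and -2.41 with the median transcript lengths, so its direction held while its size did not. No spread is known for either gene, so whether this gap is larger than the variation between cultures cannot be said. The same holds for every order given here.

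Yap1 and Wwtr1 lay above the median gene with each of the 3 lengths, though Wwtr1 only narrowly with the median transcript length, where it was higher than 55.4% of genes. Yap1 had a level of 7.52 (rank 1042) and 5.12 per kilobase, and Wwtr1 had 6.94 (rank 1789) and 4.70 per kilobase. Yap1 was the higher coactivator gene, by 0.42 per kilobase on the log2 scale or a ratio of 1.33, by 0.48 with the coding length and by 2.27, a ratio of 4.82, with the median transcript length. Tead1, which encodes one of the DNA-binding partners, had a level of 8.41 and rank 427. The longest annotated transcript of Tead1 has 9.96 kb, of which 1.31 kb are coding. Per kilobase, Tead1 stood lower with this length than with the median transcript length, at 8.12, or the coding length. Per kilobase of the longest transcript Tead1 was at 5.09, next to Yap1, while Tead2, Tead3 and Tead4 stood at 4.75, 4.36 and 3.55. Per kilobase of coding length it was at 8.02, so that the difference of Yap1 minus Tead1 was -1.05, against 0.03 with the longest transcripts. Tead1 minus Tead2 was 0.34 with the longest transcripts and 1.92 with the coding lengths. Tead1 stayed above the other TEAD genes with each of the 3 lengths used.

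**Figure D2:**
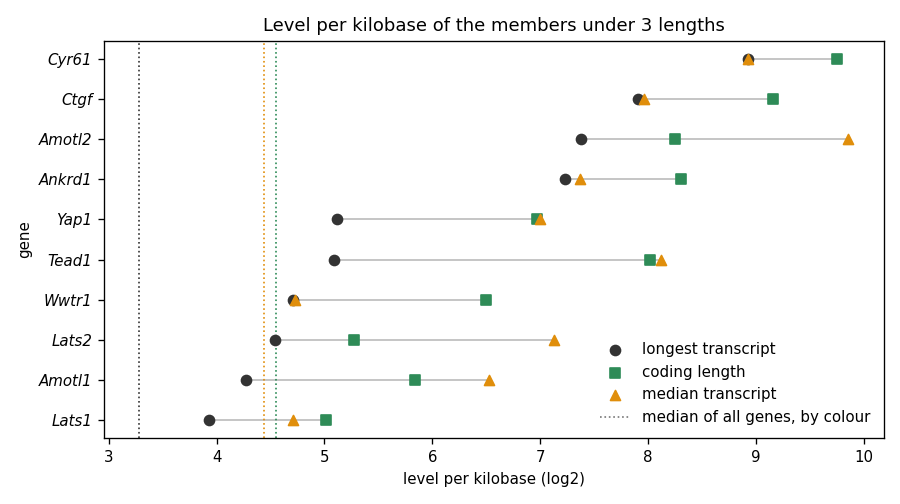
Level per kilobase on the log2 scale (x axis) for each member (y axis, ordered by the black circles). Black circles use the longest annotated transcript, green squares the coding length and orange triangles the median transcript length, a grey line joins the values of a gene, and a dotted line in the same colour marks the median of all genes with that length (3.28 longest, 4.55 coding, 4.44 median). Cyr61 and Ctgf lead with the longest transcript, at 8.93 and 7.91, and Lats1 is lowest at 3.93, while Tead1 runs from 5.09 to 8.12.

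The members sit among other pathway genes that were also expressed. The lists are described by level, with length not taken out, and then per kilobase of the longest transcript. Of 18 Hippo core genes, 16 had a row, with a median level of 6.60. All 16 lay above the median gene by level and 15 did so per kilobase, where Mob1b, at 2.77, was the exception. Besides Tead1 and Yap1, the highest was Mob1a at 8.13, which encodes an activator of the LATS kinases, and the lowest were Tead4 at 5.17, the kinase gene Stk3 at 5.39 and the TEAD cofactor gene Vgll4 at 5.58. Of the other genes of the Vgll family, Vgll1 and Vgll2 had no row, while Vgll3 was at 6.68. Of 30 upstream regulators, 28 had a row, with a median level of 6.65, and 24 lay above the median gene by level and 25 per kilobase. The protocadherin gene Fat1 led this list at 9.55, with Amotl2 next, and the kinase gene Map4k4 was at 8.76. The lowest were Fat4 at 2.59, the gene of its ligand Dchs1 at 4.59, and Wtip at 4.69. Frmd1 and Strip2 had no row.

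A signature of 22 target genes of YAP and TAZ, known from tumours, was also read. It includes Cyr61, Ctgf, Ankrd1, Amotl2 and Lats2. All 22 genes had a row, 15 above the 75th percentile and 17 above the median gene by level, with a median level of 7.21. After Cyr61, the highest by level were Myof at 9.86, a membrane repair gene, and the receptor kinase gene Axl at 9.82. Per kilobase these stood at 7.03 and 7.73, both below Ctgf at 7.91. The signature was not abundant throughout, since Nt5e, which encodes an ectoenzyme that makes adenosine, was at 0.70, Igfbp3 at 1.56 and Fjx1 at 2.00. Per kilobase, 15 of the 22 genes lay above the median gene and 11 above the 75th percentile, and 6 of the 16 Hippo core genes and 11 of the 28 upstream regulators passed the latter. The Hippo core list holds 5 members, the upstream list 2 and the signature 5, so these counts are not separate from those of the members.

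**Figure D3:**
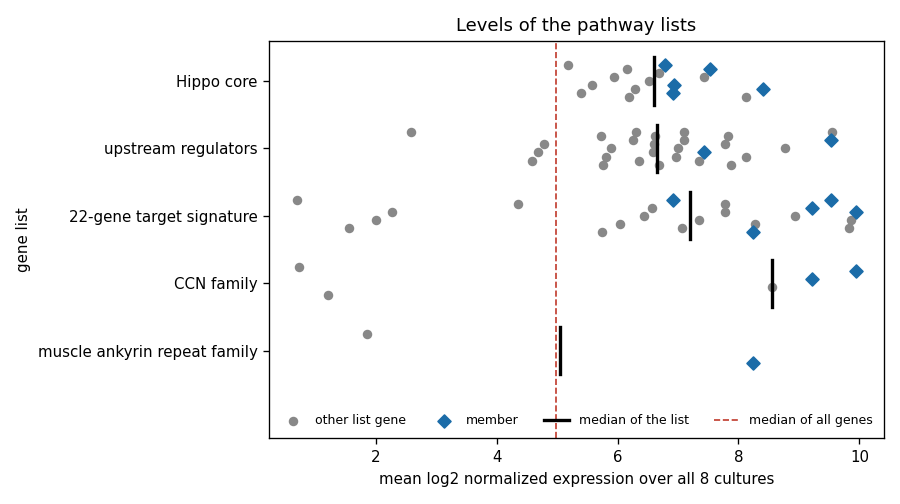
Mean log2 normalized expression (x axis) of each gene with a row in 5 lists (y axis), with members as blue diamonds, other list genes as grey circles, a black bar at the median of each list and a red dashed line at the median of all genes, 4.99. Points are spread vertically only to keep them apart, and the medians run from 5.05 for the 2 muscle ankyrin repeat genes to 8.55 for the 5 CCN genes.

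In the genome (GRCm38, also named mm10, GENCODE M21), the members lie on 6 chromosomes. Cyr61 (145646976 to 145649981) and Wwtr1 (57455649 to 57575910) are on chromosome 3. Ctgf (24595442 to 24598683) and Lats1 (7681214 to 7716460) are on chromosome 10. Chromosome 9 holds Yap1 (7931999 to 8004596), Amotl1 (14541966 to 14645056) and Amotl2 (102716672 to 102733418). Tead1 is on chromosome 7 (112679318 to 112906807), Lats2 on chromosome 14 (57689662 to 57758388) and Ankrd1 on chromosome 19 (36111961 to 36120099). Ctgf and Cyr61 span 3242 and 3006 bases, whereas Tead1 spans 227490 bases with 15 annotated transcripts. Exons of 3 members share bases with another gene. Gm15270 lies antisense to Ctgf, Gm20416 antisense to Yap1, and Gm49361 lies on the same strand as Lats2. Of these 3 overlapping genes 0 had a row. The libraries were stranded, but the strand setting of the count is not given in the sources used here. Reads of the antisense genes may thus affect the levels of Ctgf and Yap1. For Lats2 and Gm49361, the strand cannot separate reads in the shared bases under any setting. By the paper's methods, reads were counted with an Ensembl annotation, while these overlaps and the lengths used here come from GENCODE M21. Whether the overlapping genes were in the annotation used for counting was not checked.

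Promoter sequences were read from RefSeq on GRCm38.p6, 250 bases before to 50 bases after each start, because TEAD factors bind a short and well known element and some of these genes are its targets. Of the 10 members, 8 matched the set of promoters used here, Cyr61 through its newer symbol. The promoters of Ctgf and Tead1 were not analysed here. Lats2 and Wwtr1 had 2 starts each, which gave 10 windows. The TEAD motif was searched as GGAATG on both strands, where CATTCC is the same element on the other strand. It was found in at least 1 window of 6 of the 8 members, and in 7 of the 10 windows. Of all 32851 promoter windows from RefSeq, 14.7% held it, and among the 12083 windows of genes with a row 12.1%. A match of these letters is a description and not a bound site, and no binding was measured here.

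The elements are shown with 9 bases on either side, on the strand of the gene and with the motif in capitals, because they are the feature that most of these promoters have in common.
Cyr61: gccaaccaaCATTCCtgagatgtt
Ankrd1 (distal): actgccaaaGGAATGaccctctca
Ankrd1 (proximal): actaagtctGGAATGaaaattcac
Amotl2: aaactctcaCATTCCtggcatagc
Lats2: gacgcccgtGGAATGccaacaatg
Yap1: gagtctgcaGGAATGtagcgacgc
Wwtr1: aaactcaaaGGAATGcagataggc

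The motif began 103 bases before the start in Cyr61 (chr3:145650083-145650088), 65 bases before it in Amotl2 (chr9:102717739-102717744) and 141 bases before it in Yap1 (chr9:8004732-8004737). In Wwtr1 it began 136 bases before the first of the starts (chr3:57576041-57576046), and both windows of Wwtr1 hold this same element. Ankrd1 had 2 copies in the same orientation, 210 and 123 bases before its start (chr19:36120049-36120054 and chr19:36119962-36119967). In Lats2 the element lay after the start (chr14:57746114-57746119), inside the transcribed part, so that 5 members held it when only the bases before the start were read. The share of all windows was then 12.6%. Both elements of Ankrd1 and that of Amotl2 also lie in annotated exons of these genes (GENCODE M21), from transcripts that start farther upstream, while those of Cyr61, Yap1 and Wwtr1 lie in no annotated exon. With the next base included (GGAATGT, both strands), Cyr61, Amotl2 and Yap1 kept a match, against 3.85% of all windows. The windows of Amotl1 and Lats1 held neither form.

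Cyr61 and Wwtr1 are printed in full up to the start, because no annotated exon lies in these bases, and they show an abundant target and a coactivator gene that carry the element in opposite orientations. The stretch of Cyr61 is chr3:145649986-145650235 and that of Wwtr1 is chr3:57575911-57576160, both on the minus strand, with the TEAD motif in capitals.
Cyr61: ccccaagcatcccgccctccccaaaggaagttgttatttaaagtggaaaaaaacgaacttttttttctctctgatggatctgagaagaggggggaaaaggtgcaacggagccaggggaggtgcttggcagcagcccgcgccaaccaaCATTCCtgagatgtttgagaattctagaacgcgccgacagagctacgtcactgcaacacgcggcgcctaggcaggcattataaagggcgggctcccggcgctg
Wwtr1: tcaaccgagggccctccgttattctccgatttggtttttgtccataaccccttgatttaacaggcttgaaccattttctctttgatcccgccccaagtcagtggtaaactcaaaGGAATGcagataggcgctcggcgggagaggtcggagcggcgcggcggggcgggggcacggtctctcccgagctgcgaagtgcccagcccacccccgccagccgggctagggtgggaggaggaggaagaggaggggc

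Other elements were rarer in these windows. The half-site of retinoid receptors, AGGTCA on both strands, was looked for because BMS493 acts on these receptors. It was present in Amotl2, 31 bases before the start, and in Wwtr1, 9 bases before the second start, so in 2 of 8 members, where 16.3% of all windows held it. The same Wwtr1 element lies 25 bases after the first start, so both windows of Wwtr1 hold it. The share of 16.3% counts windows and not genes. Only single half-sites were searched, not pairs of them. Both half-sites lie in annotated exons of these genes (GENCODE M21). A TATA box, TATAAA on the strand of the gene, stood 25 bases before the start of Cyr61 and in no other member, against 8.32% of all windows. The AP-1 element TGANTCA, read on both strands, and the CArG box of serum response factor were in 0 of the 8 members, and in 7.81% and 1.63% of all windows. The share of G and C in the 250 bases before the start ran from 44.8% in the second window of Lats2 to 76.4% in Yap1. It was 54.8% in Cyr61, 55.6% in Ankrd1 and 70.4% in Amotl2, and 74.8% in Lats1 and 74.0% in the first window of Lats2. None of the motifs searched overlapped another, apart from the longer TEAD form, which contains the shorter.

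**Figure D4:**
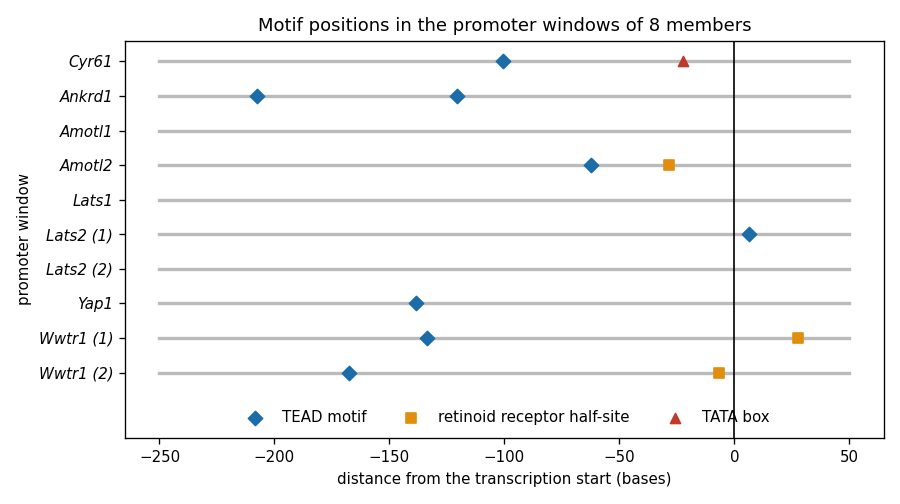
Positions of 3 motifs in the 10 promoter windows of 8 members, in bases from the transcription start (x axis, start at 0), with 1 grey line per window and the number of the window for Lats2 and Wwtr1. Blue diamonds are TEAD motifs, orange squares half-sites of retinoid receptors and the red triangle the TATA box of Cyr61, and TEAD motifs stand between 210 and 65 bases before the start in all windows that hold one but that of Lats2.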

How the data were processed

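Cultures of the mouse spleen stromal line mSSC-YFP (4 with DMSO, 4 with BMS493, 48 h) were sequenced. By the paper's methods and the submitters' processing notes, single reads from stranded mRNA libraries were aligned to mm10 (STAR 2.3.0e), reads with 1 place in the genome were counted per Ensembl gene (Rsubread), and counts were normalized by the weighted trimmed mean method. The extraction protocol given to GEO is one for cRNA amplification and qPCR.

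The authors deposited 1 table with decimal commas. Its first value column is the mean log2 normalized expression over all samples and was the only one used. The others hold the authors' own comparison of BMS493 with DMSO (log2 fold change, t, p-value and adjusted p-value). They were neither used nor printed. The planned test between groups needs values of single cultures and was not run.

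Percentiles give the share of other genes with a lower level. Lengths came from GENCODE M21 (GRCm38), where 11789 genes matched by symbol and 603 more by 1 older symbol, 98.4% in all. Promoters came from RefSeq (GRCm38.p6). Python 3.11.15, numpy 2.4.6, pandas 2.3.3 and matplotlib 3.10.9 were used, and the percentile and motif steps were tested on simulated data. The members and lists were chosen with earlier results of these data known. Every member was named, as were the other TEAD genes, list genes without a row and the 3 highest and 3 lowest genes of each list. One item of the marker lists is not reported here. Alternatives were another length, a filter at a level of 1, exact symbols, a longer motif and a shorter window. The other motifs, the pairs with other TEAD genes and Ankrd23, and Yap1 against Tead1 were added after seeing the data. A planned search of the members' proteins was not run.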

Additional observations from a re-analysis of the deposited data

How the results depend on the processing

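No paired analysis was possible because only a mean over all cultures was used, and leaving out a culture, other pseudocounts and other scalings were not run for the same reason. With only a mean per gene, depth and spread are unknown, and small gaps between genes cannot be judged. All 10 members stayed above the 75th percentile among genes with a level of at least 1. Per kilobase, 7 passed it with the longest transcript and, in settings chosen after seeing the data, 8 with the median transcript length, without Wwtr1 and Lats1, and 7 with the coding length. The TEAD motif in its longer form was found in 3 members and not 6, as fewer matches follow from its construction. With a level of at least 1 the median rose to 7.34 for the target signature and 8.89 for the CCN family, which follows from dropping low genes. Exact symbols gave the same number of list genes with a row. With the median transcript length, 794 bases for Amotl2 where the longest has 4427, the difference per kilobase became 2.27 for Yap1 minus Wwtr1 and -2.41 for Lats1 minus Lats2. With coding lengths it became -2.41 for Amotl1 minus Amotl2. The related pairs kept their direction under each length. Yap1 minus Tead1, chosen after seeing the data, was 0.03 with the longest transcript and turned to -1.12 with the median and -1.05 with the coding length.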
